A study of Mus musculus with 6 samples.

Results

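The 33 genes described here encode glucose uptake, the enzymes of glycolysis with the PFKFB regulators, and the proteins that decide what becomes of pyruvate. They were picked by gene symbol for their place in the pathway, from the 24879 rows of the expression table. The choice was made with earlier results of these data known. Messenger RNA was measured in 661W, an immortalised mouse cell line derived from cone photoreceptors, to ask which transcripts differ when the cultures are lit. The Light group (3 libraries) spent 24 h under cold white fluorescent light of 2000 ± 100 lux, whereas the 3 libraries of the Dark group came from cells left unlit for that time. Both groups were of the same line and grew in DMEM with serum and antibiotics, and no genetic change was named for either. The unit is FPKM, in which fragments are divided by the length of the transcript and by the size of the library. It allows levels of different genes to be set side by side.

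The FPKM of all genes summed to 411186 to 434372 per Dark library and 459198 to 471471 per Light library, and the sequencing depth behind them is unknown. The labels do not say that replicates were separate cultures, so the p-values measure the spread between these libraries, which may be technical. In RNA from whole cultures, fewer cells expressing a gene and less RNA per cell cannot be told apart. Of 23 photoreceptor markers only Rom1 averaged at least 1 FPKM, and 8 were listed at 0 in every library, including the cone genes Opn1mw, Arr3, Pde6c and Cngb3. The cells are therefore called by the name of the line and not as cones. Of 8 fibroblast markers 5 reached 1 FPKM on average, and the 8 summed to 756 to 874 FPKM in Dark and 368 to 399 FPKM in Light. Macrophage markers summed to 3.95 to 5.07 FPKM in Dark and 7.96 to 9.98 FPKM in Light, of which only Cd68 averaged at least 1. Müller glia markers summed to 920 to 1086 FPKM in Dark and 1097 to 1114 in Light, with 4 of 7 at 1 FPKM or more. These were Glul, Slc1a3, Sox9 and Vim, while Rlbp1, Aqp4 and Kcnj10 averaged less than 1 FPKM. Retinal pigment epithelium markers summed to 1.54 to 2.60 FPKM over all libraries, with Rpe65 and Tyr listed at 0. The part of these marker differences in the results below was not tested.

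Glycolysis breaks glucose down to pyruvate in the cytosol, and its pace is set mainly at glucose entry, hexokinase, phosphofructokinase and pyruvate kinase. Pyruvate is then either reduced to lactate and exported or carried into mitochondria and oxidised by the pyruvate dehydrogenase complex, which PDK enzymes switch off by phosphorylation. Photoreceptors are known for turning much of their glucose into lactate even when oxygen is present. The transcription factors HIF and MYC are textbook activators of these genes, and both can bind DNA through short letter cores.

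Promoter letters of the members are shown because such cores are common among them, whatever the direction of their change. The letters ACGTG, the core bound by HIF, were searched on both strands in the 250 bases before each RefSeq start on GRCm38.p6, the assembly also called mm10. They were found for 15 of the 32 members with an entry (46.9%), against 18.5% of 27025 genes. The other form of that core, GCGTG, was found for 23 of 32 (71.9%), against 30.9% of genes. The E-box CACGTG, which MYC binds and which holds ACGTG on each strand, was found for 6 of 32 (18.8%), against 6.86% of genes. A gene counted if any of its starts held the letters. Counted by start, the shares were 36.5% (ACGTG), 53.8% (GCGTG) and 11.5% (CACGTG) of the 52 starts of members. Over all 32851 starts they were 16.6%, 28.2% and 6.02%. The comparison genes were not limited to those expressed in these cells. These are matches of letters and not measured binding. Stretches before a RefSeq start of 4 members that differ in their response follow, 5′ to 3′ on the gene's strand, with ACGTG on either strand in capitals. For a member with more than 1 start, the start whose window held the most ACGTG was chosen. Hk2 and Slc16a1 were higher in Light, Pfkfb3 was lower, and Ldha did not pass the test. In the order printed, the stretches lie at chr6:82774455-82774704 (minus strand), chr2:11502102-11502340 (minus), chr3:104638414-104638663 (plus) and chr7:46845554-46845803 (plus). Those of Pfkfb3 and Ldha precede internal starts, inside the gene bounds chr2:11471433-11554077 and chr7:46841475-46855627. Which start the cells used was not tested.
Hk2: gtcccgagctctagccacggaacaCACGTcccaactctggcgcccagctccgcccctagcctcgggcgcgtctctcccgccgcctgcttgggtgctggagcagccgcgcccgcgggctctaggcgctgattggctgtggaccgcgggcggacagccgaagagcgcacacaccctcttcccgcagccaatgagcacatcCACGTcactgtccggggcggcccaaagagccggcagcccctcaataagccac
Pfkfb3: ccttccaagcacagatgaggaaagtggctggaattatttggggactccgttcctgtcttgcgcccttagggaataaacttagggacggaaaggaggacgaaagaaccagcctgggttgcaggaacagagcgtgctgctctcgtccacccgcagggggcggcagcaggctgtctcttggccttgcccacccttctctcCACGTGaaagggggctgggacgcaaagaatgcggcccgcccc
Slc16a1: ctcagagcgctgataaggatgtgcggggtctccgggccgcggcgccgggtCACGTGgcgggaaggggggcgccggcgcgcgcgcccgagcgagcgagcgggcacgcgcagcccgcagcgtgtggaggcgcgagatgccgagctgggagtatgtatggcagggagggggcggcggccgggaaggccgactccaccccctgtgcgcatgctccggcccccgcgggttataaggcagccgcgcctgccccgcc
Ldha: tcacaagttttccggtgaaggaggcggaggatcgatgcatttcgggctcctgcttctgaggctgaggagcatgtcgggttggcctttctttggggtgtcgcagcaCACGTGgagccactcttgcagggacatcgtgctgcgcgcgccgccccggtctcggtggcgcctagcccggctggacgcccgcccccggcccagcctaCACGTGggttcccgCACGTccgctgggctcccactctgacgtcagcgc
The Hk2 stretch held 2 separate cores, and those of Pfkfb3 and Slc16a1 each held 1 CACGTG. The Ldha stretch held 5 matches of ACGTG over both strands, 4 of them in 2 CACGTG boxes, the most of any window of a member. The other Ldha window held 0 matches of ACGTG. The other Pfkfb3 window held 1 match of ACGTG and 0 of CACGTG. Among the 10 members called below, at least 1 window held ACGTG for Slc2a1, Hk2, Pfkfb2, Pfkfb3, Pkm, Pdhb and Slc16a1, and no window did for Gpi1, Pfkp or Pdk1. The letters were thus found before starts of genes that rose and before starts of genes that fell.

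By deposited FPKM, Light cells carried more mRNA for the main glucose transporter, hexokinase 2, platelet phosphofructokinase, pyruvate kinase and the lactate transporter MCT1. They carried less for the PFKFB regulators Pfkfb2 and Pfkfb3. With every library scaled to the same FPKM total, the calls of Slc2a1, Hk2 and Slc16a1 were lost. Of the 33 members 31 averaged at least 1 FPKM over the 6 libraries and were tested, and the neuronal forms Slc2a3 (0 to 0.0674 FPKM) and Aldoc (0.177 to 0.425 FPKM) did not reach that level. A total of 7 members rose (Slc2a1, Hk2, Gpi1, Pfkp, Pkm, Pdhb and Slc16a1), 3 fell (Pfkfb2, Pfkfb3 and Pdk1) and 21 did not pass an adjusted p of 0.05. The 10 called members are 32.3% of those tested, close to the 35.6% called among all 11068 genes tested. Those that rose were 22.6% against 19.2% of all genes, and those that fell 9.68% against 16.4%. The groups did not overlap for 18 members (58.1%, with 12 above and 6 below in Light), against 52.6% of all genes. The median log2 change, Light minus Dark, was 0.05 over the members and -0.01 over all genes. The shares called were thus near those of the whole table, and what can be described is which steps the calls fell on.

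On mm10, with gene bounds from GENCODE M21, the members that rose lie at chr4:119108711-119137983 (Slc2a1), chr6:82725025-82774454 (Hk2), chr7:34201330-34230336 (Gpi1), chr13:6579768-6648777 (Pfkp), chr9:59656368-59679375 (Pkm), chr14:8165996-8173025 (Pdhb) and chr3:104638668-104658462 (Slc16a1). Those that fell lie at chr1:130689182-130729253 (Pfkfb2), chr2:11471433-11554077 (Pfkfb3) and chr2:71873224-71903858 (Pdk1), and each value counts the whole gene. The count of members that rose depended on single libraries. It was 12 without Dark 2, 2 without Dark 3, 1 without Light 2 and 0 without Light 3, while the count over all genes also moved, from 3938 to 5874, 1277, 1313 and 1228. Members that fell numbered 2 to 4 in these fits, and genes that fell over the whole table numbered 533 to 2884. Scaling every library to the same FPKM total moved the median of all genes from -0.01 to -0.13, leaving 2 members higher and 6 lower. Over all 11068 genes that fit called 1212 higher and 2902 lower, against 2128 and 1810 in the main fit. Quantile normalization gave 4 members higher and 7 lower, with 2062 and 1727 over all genes.

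**Figure D1:**
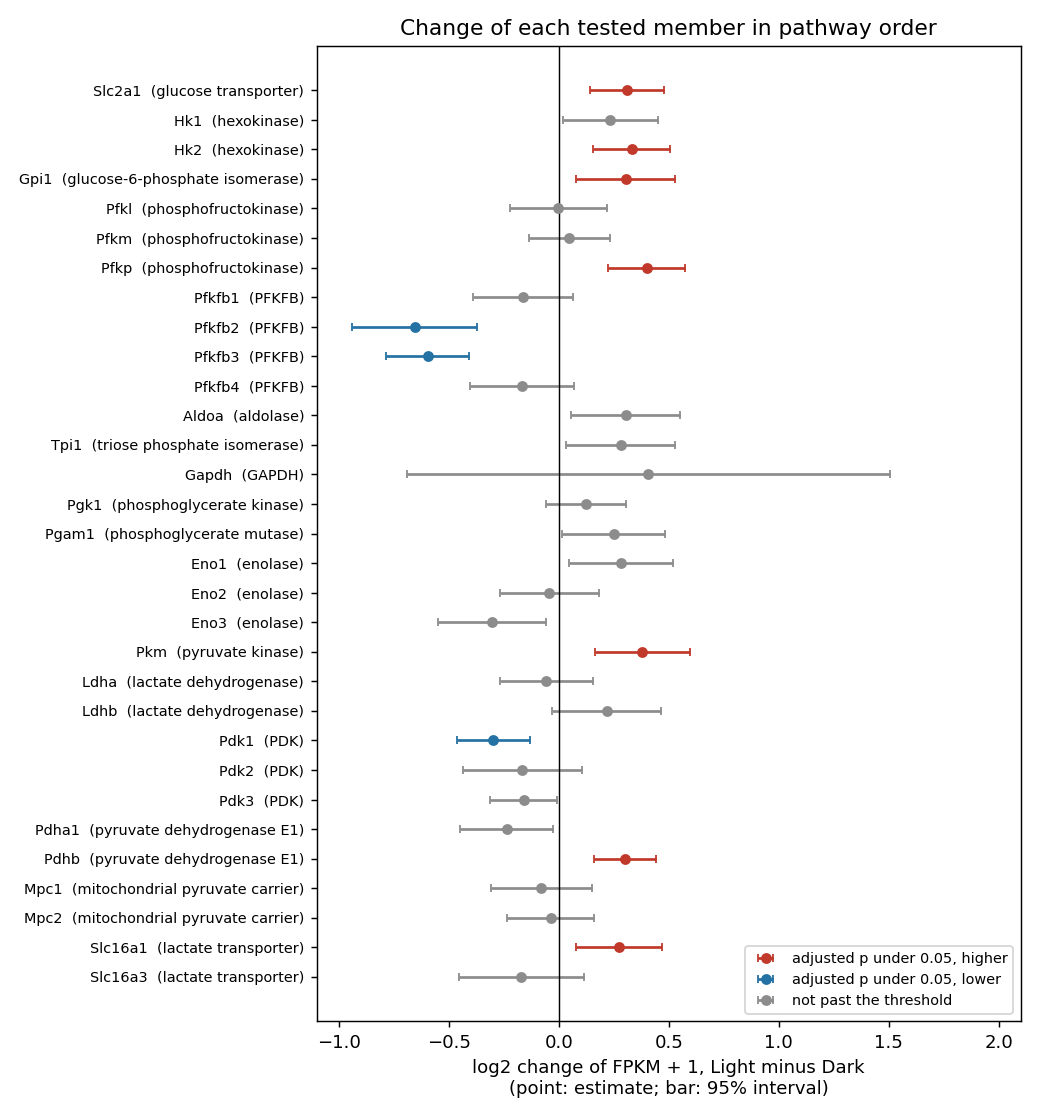
Log2 change of FPKM + 1 (Light minus Dark, x axis) of the 31 tested members in pathway order, with points for the limma estimate, bars for its 95% interval and colour for the call at an adjusted p of 0.05. The largest decreases are Pfkfb2 (-0.66) and Pfkfb3 (-0.60), most changes lie within 0.4 of 0 on either side, and the widest bar is that of Gapdh.

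Of the genes for glucose entry and its first enzymes, Slc2a1, Hk2 and Gpi1 carried more mRNA in Light. Slc2a1 encodes GLUT1, the transporter that supplies most cultured cells with glucose, and it made up nearly all of the summed Slc2a1 and Slc2a3 mRNA. Its level was 35.3, 39.1 and 35.0 FPKM in Dark 1 to 3 and 46.1, 47.5 and 42.9 FPKM in Light 1 to 3. Every Light library lay above every Dark library, and the log2 change was 0.31 ± 0.07 (SE; adjusted p = 0.0178). Hexokinase phosphorylates glucose and so holds it in the cell, and Hk2 is the form that insulin, hypoxia and growth factors are known to induce. Hk2 stood at 10.6, 10.8 and 9.49 FPKM in Dark and 13.67, 13.03 and 13.004 FPKM in Light. The groups did not overlap and the rise was 0.33 ± 0.08 (log2, SE; adjusted p = 0.0171). The broadly expressed Hk1 was the more abundant form, at 40.0 ± 4.79 FPKM in Dark and 47.1 ± 2.19 in Light (SD, n = 3), a change of 0.24 that did not pass the test (adjusted p = 0.0797). Its groups overlapped because Dark 2, at 45.5 FPKM, exceeded Light 1, at 44.6, and without Dark 2 its change was 0.33 and was called (adjusted p = 0.00820). Hk1 was also called in the fit with replicate number as a block (adjusted p = 0.00530).

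Gpi1, which turns glucose 6-phosphate into fructose 6-phosphate, rose from 141, 174 and 150 FPKM in Dark 1 to 3 to 181, 206 and 187 FPKM in Light 1 to 3. Its change was 0.30 ± 0.10 (log2, SE; adjusted p = 0.0445), with the highest Dark library, Dark 2, just under the lowest Light library. This was the least steady of the 10 calls, kept in 4 of 15 alternative fits. Gpi1 lost its call without Dark 1 (adjusted p = 0.0929), Dark 3 (0.139), Light 1 (0.0592), Light 2 (0.154) or Light 3 (0.115). Slc2a1 lost its call without Dark 3 (adjusted p = 0.0776), Light 2 (0.0760) or Light 3 (0.0502), and Hk2 without the same libraries (0.0707, 0.0599 and 0.0658). Rescaling to the same FPKM total lowered the log2 change of Slc2a1 to 0.17 (adjusted p = 0.0537), that of Hk2 to 0.20 (0.0690) and that of Gpi1 to 0.16 (0.121).

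**Figure D2:**
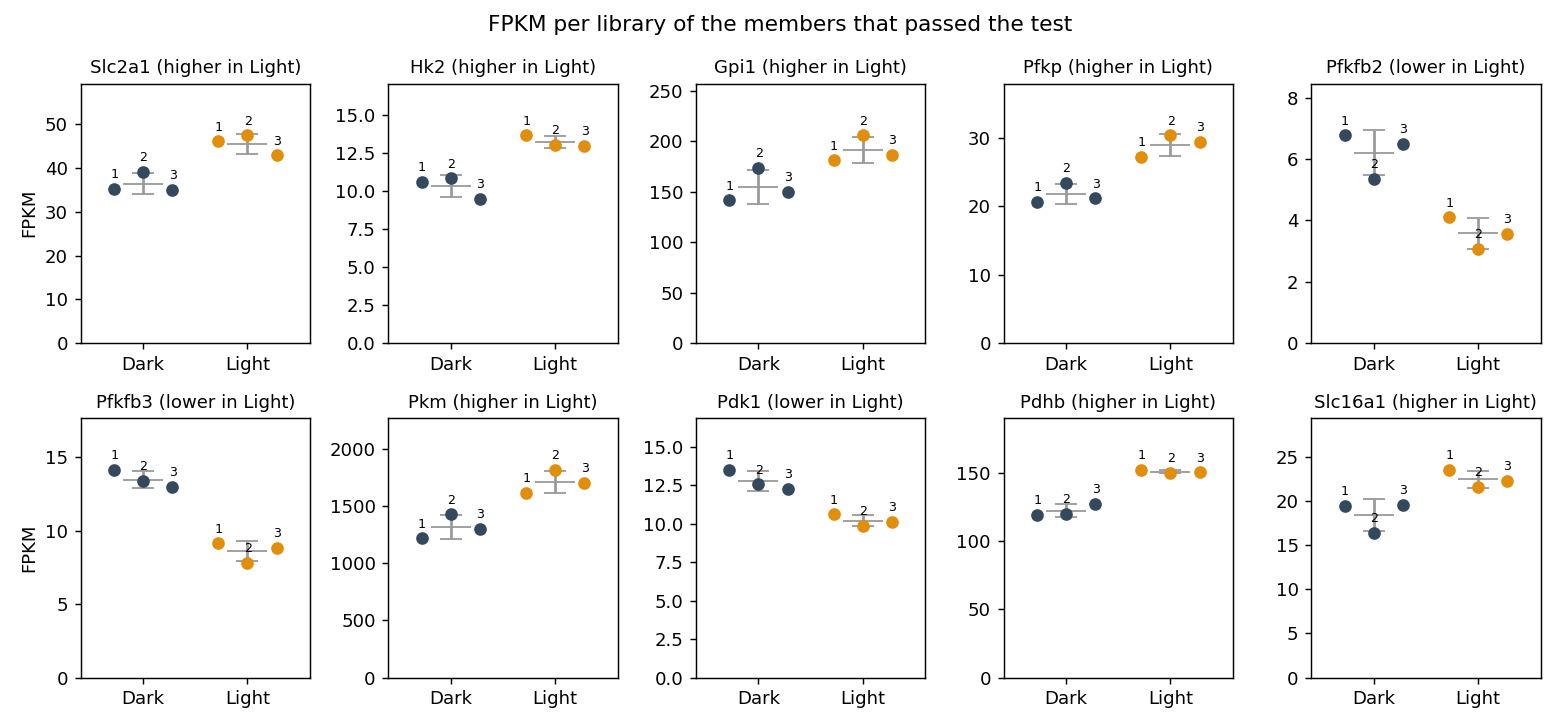
FPKM (y axis, from 0) in each of the 3 Dark and 3 Light libraries, numbered 1 to 3, for the 10 members past an adjusted p of 0.05, with lines for the mean and SD of each group. In all 10 panels the Dark and Light points do not overlap, as for Pfkfb3 with Dark at 12.98 to 14.13 and Light at 7.83 to 9.14. The panels were chosen by the test on these same libraries, and the groups did not overlap for 52.6% of all genes tested.

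At phosphofructokinase, the committing step of glycolysis, the forms moved unequally. Pfkp, the platelet form, rose from 20.7, 23.4 and 21.2 FPKM in Dark to 27.2, 30.4 and 29.5 FPKM in Light. The groups were well apart, with a log2 change of 0.40 ± 0.07 (SE; adjusted p = 0.00916). The liver form Pfkl, the most abundant, stood at 88.2 ± 10.1 FPKM in Dark against 87.8 ± 5.22 in Light, and the muscle form Pfkm at 41.6 ± 4.01 and 42.9 ± 0.671 (SD, n = 3). Neither passed the test (adjusted p = 0.989 and 0.634), and their 95% intervals ran from -0.22 to 0.22 and from -0.13 to 0.23 on the log2 scale. Pfkp made up 14.4% ± 0.495 of phosphofructokinase FPKM in Dark and 18.2% ± 0.556 in Light, while Pfkl went from 58.1% ± 0.683 to 54.9% ± 0.935 (SD, n = 3). Both shares were fully separated between groups, and the exact permutation test gave its smallest possible p of 0.1 for each. Summed over the 3 forms the step held 152 FPKM in Dark and 160 in Light, with overlapping groups (exact permutation p = 0.5). Pfkp lost its call without Light 3 (adjusted p = 0.0508), and its change became 0.73 (adjusted p = 0.00233) when the trend with transcript length and GC content was removed. Pfkp and Pfkm each overlap a gene on the opposite strand (Pitrm1 and Senp1), as do Pfkfb1, Tpi1 and Gapdh (Apex2, Spsb2 and Iffo1). The strand setting is not given in the sources used here, so reads in those overlaps cannot be told apart.

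The PFKFB enzymes make and break fructose 2,6-bisphosphate, the strongest known activator of phosphofructokinase, and here the mRNA of 2 of the 4, Pfkfb3 and Pfkfb2, was lower in Light. Pfkfb3, whose kinase activity far exceeds its phosphatase activity, fell from 14.13, 13.39 and 12.98 FPKM in Dark to 9.14, 7.83 and 8.85 FPKM in Light. Its log2 change was -0.60 ± 0.08 (SE; adjusted p = 0.00312), with Light at 0.638 of the Dark mean. Pfkfb2, the form best known from heart, fell from 6.77, 5.37 and 6.51 FPKM to 4.10, 3.08 and 3.57 FPKM. No Light library reached the lowest Dark library, and the change was -0.66 ± 0.12 (log2, SE; adjusted p = 0.00917). These were the steadiest calls among the members. Pfkfb3 was called in all 15 alternative fits (log2 change -0.73 to -0.50) and Pfkfb2 in all 14 that tested it (-0.78 to -0.49).

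The other forms gave values in the same direction without passing the test. Pfkfb1 stood at 4.99 ± 0.222 FPKM in Dark against 4.36 ± 0.491 in Light (SD, n = 3; adjusted p = 0.211). Pfkfb4 stood at 2.61 ± 0.125 and 2.23 ± 0.256 FPKM (adjusted p = 0.219), with all Light libraries below the Dark ones. After quantile normalization the changes of Pfkfb1 and Pfkfb4 turned to 0.0093 and 0.011, and with the length and GC trend removed Pfkfb4 was called (-0.29, adjusted p = 0.0483). The 4 genes together went from 27.3 ± 1.44 to 18.8 ± 1.61 FPKM (SD, n = 3) with no overlap, at the smallest exact permutation p of 0.1. Pfkfb3 remained the largest form, with 49.5% of the summed FPKM in Dark and 45.9% in Light. Pfkfb2 went from 22.7% to 19.0%, Pfkfb1 from 18.3% to 23.2% and Pfkfb4 from 9.56% to 11.9%. All 4 shares were separated between groups (exact permutation p = 0.1, adjusted over 18 shares 0.164).

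**Figure D3:**
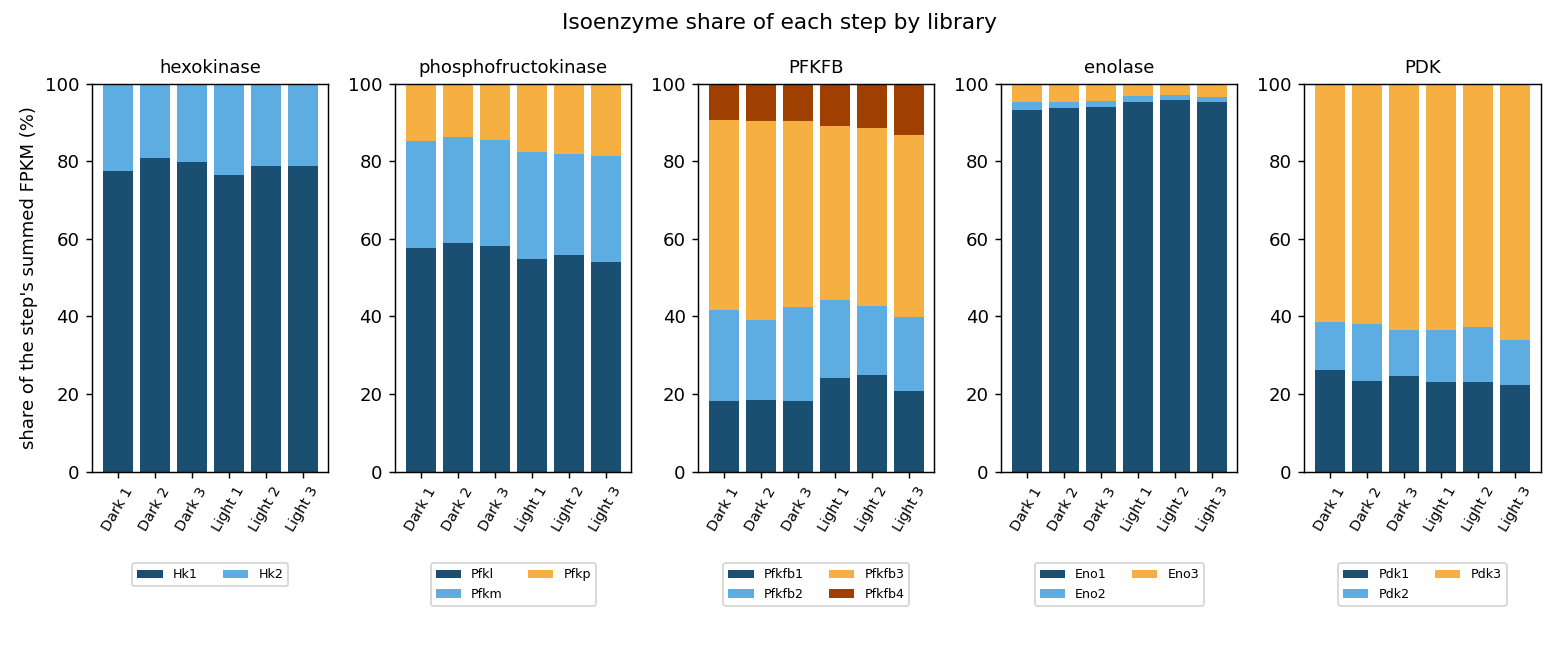
Share of each step's summed FPKM (%, y axis) held by each isoenzyme in the 6 libraries (x axis) for hexokinase, phosphofructokinase, PFKFB, enolase and PDK. Pfkp takes 13.8% to 14.8% of its step in Dark and 17.6% to 18.8% in Light, and Eno1 takes 93.2% to 94.0% of enolase in Dark and 95.3% to 95.7% in Light.

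From aldolase to pyruvate kinase, Aldoa, Tpi1, Pgk1, Pgam1, Eno1 and Pkm were among the most abundant members, unlike Aldoc, Gapdh, Eno2 and Eno3. Of these steps only pyruvate kinase passed the test. Pkm, which encodes the enzyme that yields pyruvate and ATP, was the highest of all members. It stood at 1216, 1425 and 1301 FPKM in Dark 1 to 3 and at 1611, 1811 and 1704 FPKM in Light 1 to 3. The groups did not overlap, and the log2 change was 0.38 ± 0.09 (SE; adjusted p = 0.0206). Gene-level FPKM do not separate its spliced forms. The call was lost without Dark 3 (adjusted p = 0.0834), Light 2 (0.0867) or Light 3 (0.0837), and the change was 0.16 after quantile normalization (adjusted p = 0.0688) and 0.18 with the length and GC trend removed (adjusted p = 0.0123).

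Aldoa, the aldolase that splits fructose 1,6-bisphosphate, had 2 rows in the table. The higher, used here, lies at chr7:126795234-126800751 on mm10, and the other, at chr7:126800790-126809108, stood at 2.72 to 3.47 FPKM. The higher row gave 602, 761 and 633 FPKM in Dark and 771, 873 and 813 FPKM in Light. All Light libraries lay above the Dark ones, though Light 1 exceeded Dark 2 only narrowly, and the change of 0.30 ± 0.11 (log2, SE) did not pass (adjusted p = 0.0594). Tpi1, the triose phosphate isomerase, stood at 693 ± 83.9 FPKM in Dark against 840 ± 56.6 in Light (SD, n = 3; adjusted p = 0.0718). Pgam1, the mutase that moves the phosphate group, stood at 427 ± 51.6 and 506 ± 24.1 FPKM (adjusted p = 0.0858). Eno1, the ubiquitous enolase, stood at 808 ± 87.9 and 981 ± 61.6 FPKM (adjusted p = 0.0612). Without Dark 2 all 4 were called, Aldoa at 0.40 (adjusted p = 0.00894), Tpi1 at 0.38 (0.0119), Pgam1 at 0.34 (0.0129) and Eno1 at 0.37 (0.0116). The fit with replicate number as a block also called Aldoa (adjusted p = 0.00061), Tpi1 (0.000864), Pgam1 (0.00246) and Eno1 (0.000761). Of all 11068 genes, 5874 were called without Dark 2 and 6690 with the block, against 3938 in the main fit. The labels do not say what a shared number stands for. Pgk1, the phosphoglycerate kinase that makes ATP, stood at 524 ± 36.5 and 570 ± 15.96 FPKM with overlapping groups (adjusted p = 0.234). Its 95% interval ran from -0.06 to 0.31, and its sign turned to -0.10 after quantile normalization, to -0.02 on the same FPKM total and to -0.05 with the length and GC trend removed.

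These abundant genes moved together among libraries of the same group. Of the 9 members at 100 FPKM or more in both groups, 8 had their highest Dark value in Dark 2 and 8 their highest Light value in Light 2. Their median difference, Dark 2 minus Dark 1, was 0.29 on the log2 scale, against 0.02 over all genes, and Light 2 minus Light 1 was 0.17 against -0.03. Across all tested genes Dark 2 minus Dark 1 rose with transcript GC content (Spearman rho = 0.693, over genes, which are not independent replicates and share these libraries). The 9 members had a median GC content of 52.8% and a median transcript of 1825 bases, against 49.8% and 3419 bases over all genes. Their median change between groups was 0.28, and 0.02 once the trend with length and GC content was removed from each library. In that fit Aldoa stood at 0.01, Tpi1 at 0.02, Pgam1 at 0.01 and Eno1 at 0.05. The part of sequence composition in the differences between groups was not tested beyond that fit.

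**Figure D4:**
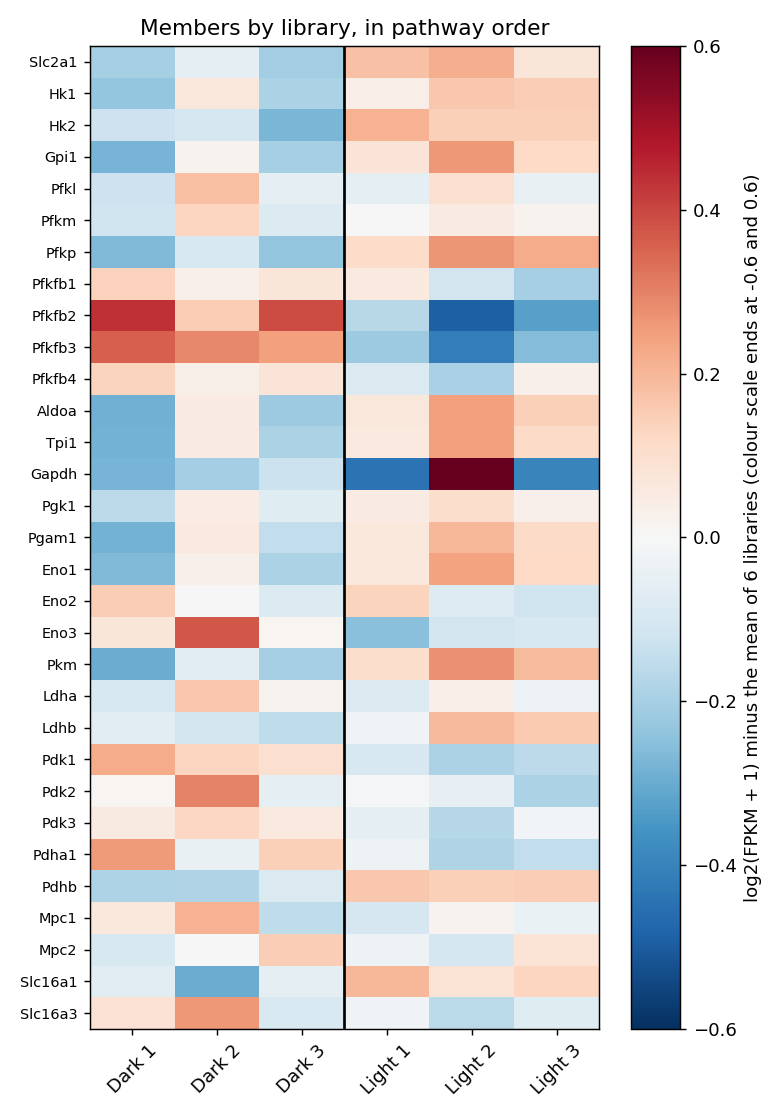
Log2(FPKM + 1) of each tested member minus its mean over the 6 libraries (colour), with members in pathway order down the rows, libraries in columns, and a line between Dark and Light. Dark 2 stands above the other Dark libraries and Light 2 above the other Light libraries for 8 of the 9 abundant members each, and the value of Gapdh in Light 2 lies beyond the end of the colour scale.

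Gapdh, which makes the NADH of the pathway, was set apart by a single library. It stood at 43.5, 45.9 and 48.3 FPKM in Dark and at 38.7, 146 and 40.1 FPKM in Light, so that Light 2 lay far above every other library. The mean change of 0.41 ± 0.47 (log2, SE) did not pass (adjusted p = 0.504), and without Light 2 it was -0.21 (adjusted p = 0.111). These levels were also far below those of its pathway neighbours Tpi1 (626 to 902 FPKM) and Pgk1 (489 to 587 FPKM). The annotation holds 150 other genes with a stretch at least 90% identical to the Gapdh coding sequence over at least 50% of its length, of which 4 are in the table. How reads shared between such copies were counted is not given in the sources used here, so the Gapdh values are uncertain. The same holds in lesser degree for Ldha (9 such genes), Eno1 (6), Aldoa and Pkm (4 each), Pgam1 (3), Pgk1 (2) and Gpi1, Tpi1, Ldhb, Pfkfb2, Pdha1, Pdhb, Mpc1 and Mpc2 (1 each). The Eno1 copy Eno1b stood at 111 to 168 FPKM, and the Pfkfb2 copy Gm29427 at 0 to 0.124 FPKM.

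The tissue-restricted enolases gave other values. Eno3, the muscle form, stood at 40.4 ± 5.76 FPKM in Dark against 32.4 ± 1.96 in Light (SD, n = 3), with all Light libraries below the Dark ones (log2 change -0.30, adjusted p = 0.0566). It passed after quantile normalization (-0.38, adjusted p = 0.0235), on the same FPKM total (-0.44, adjusted p = 0.0128) and with the length and GC trend removed (-0.58, adjusted p = 0.000602). Eno3 also passed with replicate number as a block (-0.30, adjusted p = 0.00395). Eno2, the neuronal form, stood at 14.5 ± 1.26 and 14.1 ± 1.46 FPKM (adjusted p = 0.741). Within enolase FPKM the share of Eno1 went from 93.6% to 95.5% and that of Eno3 from 4.68% to 3.15%, both separated between groups at the smallest exact permutation p of 0.1.

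At the fork after pyruvate, lactate dehydrogenase mRNA was high and did not pass the test, while single genes of pyruvate oxidation and lactate export did. Ldha, the form that favours lactate formation, stood at 1004 ± 90.1 FPKM in Dark against 964 ± 43.0 in Light (SD, n = 3; adjusted p = 0.637), with a 95% interval of -0.27 to 0.16 on the log2 scale. It passed as lower after quantile normalization (-0.31, adjusted p = 0.00440) and with the length and GC trend removed (-0.27, adjusted p = 0.00409), and its sign turned to 0.01 without Dark 2. Ldhb, the heart form, was at 1.21 ± 0.0671 and 1.57 ± 0.200 FPKM (adjusted p = 0.137), so that Ldha made up 99.9% of the step in Dark and 99.8% in Light.

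PDK enzymes phosphorylate and switch off pyruvate dehydrogenase. Pdk1, known as a HIF target, fell from 13.5, 12.6 and 12.2 FPKM in Dark to 10.6, 9.88 and 10.1 FPKM in Light. The groups did not overlap, and the change was -0.30 ± 0.07 (log2, SE; adjusted p = 0.0200). Pdk3 was the most abundant of the 3, at 32.1 ± 0.927 and 28.6 ± 1.67 FPKM (adjusted p = 0.0909), also with all Light libraries below Dark. Pdk2 stood at 6.71 ± 1.04 and 5.84 ± 0.444 FPKM (SD, n = 3; adjusted p = 0.275). Summed over these 3 forms, PDK mRNA went from 51.6 ± 1.92 to 44.7 ± 1.79 FPKM without overlap (exact permutation p = 0.1). Pdk1 lost its call without Dark 1 (adjusted p = 0.0564), Dark 3 (0.0611), Light 2 (0.0782) or Light 3 (0.0808), and stood at -0.11 with the length and GC trend removed (adjusted p = 0.179). That same fit called Pdk2 (-0.38, adjusted p = 0.0134) and Pdk3 (-0.25, 0.0104). Pdk3 was also called on the same FPKM total (-0.30, adjusted p = 0.0143) and after quantile normalization (-0.21, 0.0383). The fit with replicate number as a block called it at -0.16 (adjusted p = 0.0383).

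Pdhb encodes the beta subunit of the E1 enzyme of pyruvate dehydrogenase, and it rose from 119, 120 and 128 FPKM in Dark to 152, 150 and 150 FPKM in Light. The 3 Light libraries lay close together and well above Dark, with a change of 0.30 ± 0.06 (log2, SE; adjusted p = 0.0116). Its partner Pdha1, the alpha subunit that PDK phosphorylates, stood at 55.6 ± 5.90 and 46.9 ± 2.66 FPKM (SD, n = 3), a change of -0.24 that did not pass (adjusted p = 0.0755). Pdha1 was called after quantile normalization (-0.35, adjusted p = 0.0395), on the same FPKM total (-0.38, 0.0337), with the length and GC trend removed (-0.19, 0.0250) and without Dark 2 (-0.32, 0.0127). It was also called with replicate number as a block (-0.24, adjusted p = 0.00316). Pdhb lost its call without Light 2 (adjusted p = 0.0517) or Light 3 (0.0601), after quantile normalization (0.15, adjusted p = 0.0683) and on the same FPKM total (0.16, adjusted p = 0.0587). The mitochondrial pyruvate carrier is built of Mpc1 and Mpc2. Mpc1 stood at 31.8 ± 4.09 and 29.9 ± 1.30 FPKM (adjusted p = 0.531) and Mpc2 at 45.9 ± 4.02 and 44.7 ± 2.96 FPKM (adjusted p = 0.750). The 95% intervals of their log2 changes ran from -0.31 to 0.15 and from -0.23 to 0.16. With the length and GC trend removed Mpc1 was called at -0.28 (adjusted p = 0.0402) and Mpc2 stood at 0.19 (0.237), and without Dark 2 Mpc1 stood at 0.0055.

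Slc16a1 encodes MCT1, which carries lactate and pyruvate across the cell membrane with a proton. It stood at 19.4, 16.4 and 19.5 FPKM in Dark and 23.5, 21.6 and 22.3 FPKM in Light. Again no Dark library reached a Light library, and the rise was 0.27 ± 0.08 (log2, SE; adjusted p = 0.0415). Slc16a3, which encodes MCT4, the exporter of strongly glycolytic cells, stood at 1.99 ± 0.365 and 1.65 ± 0.130 FPKM (SD, n = 3; adjusted p = 0.285). Slc16a1 held 90.1% of their summed FPKM in Dark and 93.2% in Light (exact permutation p = 0.1). Its call was lost without Dark 3 (adjusted p = 0.0793), Light 1 (0.0984), Light 2 (0.0934) or Light 3 (0.118). On the same FPKM total its change was 0.14 (adjusted p = 0.285), and with the length and GC trend removed 0.54 (adjusted p = 0.00105).

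Sums over the isoenzymes among the members describe each step whichever of these forms carries it. They leave out forms that are not members. Such forms include Pdk4 (mean 6.06 FPKM in Dark and 2.93 in Light), Slc2a6 (6.31 and 10.2) and Slc2a8 (5.12 and 5.63). Glucose transporter mRNA went from 36.5 ± 2.31 to 45.5 ± 2.38 FPKM, hexokinase from 50.4 ± 5.22 to 60.4 ± 1.82, and lactate transporter from 20.4 ± 1.49 to 24.1 ± 1.08 (SD, n = 3). Aldolase went from 666 ± 83.9 to 819 ± 51.2 FPKM and enolase from 863 ± 92.8 to 1028 ± 62.0. These 5 sums were higher in every Light library, and those of PFKFB and PDK were lower in every Light library. Each of these 7 sums reached the smallest exact permutation p of 0.1 (2-sided, 3 against 3), which becomes 0.129 after adjustment over the 9 steps, so no step sum can pass the threshold in this design. The sums for phosphofructokinase and lactate dehydrogenase (1005 and 966 FPKM, exact permutation p = 0.7) overlapped between groups. On the same FPKM total the differences were smaller for the sums that were higher in Light, with glucose transporter at 4.98 instead of 9.02 FPKM, hexokinase at 4.57 instead of 10.0, aldolase at 80.6 instead of 153, enolase at 71.6 instead of 165 and lactate transporter at 1.43 instead of 3.67. PFKFB went from -8.54 to -10.9, PDK from -6.87 to -11.7 and lactate dehydrogenase from -39.7 to -137, and phosphofructokinase turned from 8.22 to -7.10.

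Other genes of glucose handling were read from lists of named genes, which were chosen with earlier results of these data known. For all the lists below, a share that differs from that of all genes may reflect this choice, which was not tested. Among further transporters, enzymes and regulators of the pathway, 19 of 41 were tested, of which 4 rose (21.1%), 3 fell (15.8%) and 12 did not pass (median log2 change 0.12). Among all tested genes 19.2% rose and 16.4% fell, so these shares are near those of the whole table. The glucose transporter Slc2a6 rose by 0.63 (adjusted p = 0.0115), Bpgm, which makes 2,3-bisphosphoglycerate, by 0.31 (0.0347), Pgam5, a mitochondrial protein phosphatase despite its name, by 0.25 (0.0399) and Pdhx, a structural part of pyruvate dehydrogenase, by 0.29 (0.0237). Pdk4, the PDK form known to rise in fasting, fell by 0.84 (adjusted p = 0.00443), from 7.18, 5.66 and 5.34 FPKM in Dark to 3.33, 2.79 and 2.69 FPKM in Light. Emb, which encodes a partner protein of monocarboxylate transporters, fell by 0.77 (0.00545), and Pdp2, the phosphatase that switches pyruvate dehydrogenase back on, by 0.38 (0.0199). The calls of Pdk4 and Emb were kept in every alternative fit. The other 5 each lost theirs without Dark 3 or without Light 3, and also without Light 2 (Bpgm, Pgam5, Pdhx and Pdp2), Dark 1 (Bpgm and Pgam5) or Light 1 (Pgam5). Over all alternatives the adjusted p ran up to 0.0565 for Slc2a6, 0.160 for Bpgm, 0.250 for Pgam5, 0.153 for Pdhx and 0.140 for Pdp2.

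Of 9 tested genes that turn pyruvate towards glucose or the citric acid cycle, 5 rose (55.6%, against 19.2% of all genes), 1 fell (11.1%, against 16.4%) and 3 did not pass (median 0.30). Pck2, the mitochondrial PEP carboxykinase, rose by 1.04 (log2; adjusted p = 0.000816), from 27.1 ± 3.51 to 56.4 ± 3.93 FPKM, and Gpt2, the mitochondrial alanine transaminase, by 1.20 (0.000121), from 11.6 ± 0.216 to 28.0 ± 1.41 FPKM (SD, n = 3). Gpt, its cytosolic partner, rose by 0.46 (adjusted p = 0.00929). These 3 calls were kept in every alternative fit. Me1 (0.30, adjusted p = 0.0130), Pcx (0.29, 0.0427) and Me3 (-0.35, 0.0363) each lost theirs without Dark 3 or without Light 3, and also without Light 1 or Light 2 (Pcx and Me3) or Dark 1 (Pcx). Over all alternatives the adjusted p ran up to 0.0998, 0.215 and 0.252.

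Of 22 tested genes of the branches that leave glycolysis, 12 rose (54.5%, against 19.2% of all genes), 2 fell (9.09%, against 16.4%) and 8 did not pass (median 0.28). The enzymes of the pentose phosphate pathway, which draws on glucose 6-phosphate and makes NADPH, included Pgd (0.94, adjusted p = 0.00115), G6pdx (0.63, 0.00350), Taldo1 (0.63, 0.00545), Tkt (0.54, 0.00608) and Rpia (0.29, 0.0196). The serine synthesis enzymes, which draw on 3-phosphoglycerate, rose together, with Phgdh at 0.94 (adjusted p = 0.00101), Psat1 at 0.92 (0.000525) and Psph at 0.89 (0.000503). In the polyol route from glucose to fructose, Sord rose by 0.77 (adjusted p = 0.00148) and Akr1b3 by 0.28 (0.0345). The glycogen genes Gys1 (0.27, adjusted p = 0.0328) and Pgm1 (0.30, 0.0455) also rose. Gfpt1, which opens the hexosamine pathway, fell by 0.51 (adjusted p = 0.00486), and Gpd2, of the glycerol phosphate shuttle, by 0.23 (0.0319). Calls kept in every alternative fit were those of G6pdx, Pgd, Tkt, Taldo1, Phgdh, Psat1, Psph and Sord. Rpia, Akr1b3, Gys1, Pgm1 and Gpd2 each lost theirs without Dark 1, Dark 3, Light 2 or Light 3 (Pgm1 and Gpd2 also without Light 1), at adjusted p up to 0.109, 0.193, 0.188, 0.252 and 1.00 over all alternatives, and Gpd2 stood at 0.00 with the length and GC trend removed. Gfpt1 lost its call only in that last fit, of those run, where its change was -0.17 (adjusted p = 0.0514).

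Regulators of the pathway and their textbook targets went in both directions, with 4 of 21 tested genes higher (19.0%, against 19.2% of all genes), 7 lower (33.3%, against 16.4%) and 10 not past the test (median -0.01). Hif1a, the oxygen-regulated subunit of HIF-1, fell from 116, 61.9 and 83.0 FPKM in Dark 1 to 3 to 56.0, 36.7 and 46.9 FPKM in Light 1 to 3. Its groups were apart but widely spread, with a change of -0.86 ± 0.24 (log2, SE; adjusted p = 0.0314). The call was lost without Dark 3 (adjusted p = 0.0909), Light 2 (0.111) or Light 3 (0.0906). With the length and GC trend removed its change was -0.51 (adjusted p = 0.00905). Its paralog Epas1 fell by 0.66 (adjusted p = 0.00536), and their partner Arnt by 0.33 (0.0162, with the call lost without Dark 3 at 0.0706 or Light 2 at 0.0595).

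Myc rose from 31.6, 31.2 and 32.1 FPKM in Dark to 53.3, 48.4 and 49.1 FPKM in Light, a change of 0.65 ± 0.06 (log2, SE; adjusted p = 0.000769). Txnip, a glucose-induced inhibitor of glucose uptake, fell from 36.6, 36.1 and 34.9 FPKM to 26.7, 23.8 and 25.3 FPKM, a change of -0.49 ± 0.06 (adjusted p = 0.00285). Both were tight within groups, and both calls were kept in every alternative fit. Of genes that hypoxia is known to induce, Ndrg1 rose by 1.70 (adjusted p = 6.47e-05) and Vegfa by 0.93 (0.000649), while Car9 fell by 0.43 (0.0260) and P4ha1 by 0.37 (0.0157). Car9 lay near the filter of 1 FPKM, at 1.22 to 1.66 FPKM in Dark and 0.73 to 0.84 FPKM in Light. Egln2, an oxygen-sensing hydroxylase, rose by 0.34 (adjusted p = 0.0240), and Prkaa1, a catalytic subunit of AMPK, fell by 0.62 (0.0457) although Light 1 (17.3 FPKM) lay above Dark 2 (17.1 FPKM). The change of Prkaa1 was -0.22 with the length and GC trend removed (adjusted p = 0.0353). The calls of Ndrg1, Vegfa and Epas1 were kept in every alternative fit. Those of Car9, P4ha1, Egln2 and Prkaa1 were lost without Dark 3 or Light 3 (for Car9, Egln2 and Prkaa1 also without Light 2, and for Car9 and Prkaa1 without Dark 1), at adjusted p up to 0.139, 0.0704, 0.107 and 0.186 over all alternatives. Among the called members, HIF targets also moved in both directions, with Slc2a1 and Hk2 higher and Pfkfb3 and Pdk1 lower. The call of Pfkfb3 was kept in all 15 alternative fits, those of Slc2a1 and Hk2 in 10 each and that of Pdk1 in 9. Other members, Ldha, Pgk1, Aldoa and Eno1 among them, did not pass the test.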

How the data were processed

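Libraries were made from total RNA with a dual-mode mRNA kit, per the labels' protocols, and groups and numbers were read from the titles of the 6 libraries. Reads were processed with HISAT2 and mm10, per the submitters' processing notes. The program that made the FPKM, the annotation, the strand setting and the depth are each not given in the sources used here. Per the file headers, the deposited unit is FPKM, in 24879 rows of genes, with 5579 rows at 0 in every library. Whole reads could not be recovered, since of 1407 low genes only 0.284% to 0.498% shared the most frequent ratio of a pair of libraries. Precision therefore rests on the spread of 3 libraries per group.

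Genes averaging 1 FPKM or more were tested on log2(FPKM + 1), a pseudocount of 1 that understates changes of low genes, 2-sided, with limma 3.58.1 (R 4.3.3) and its trended, robust eBayes step. P-values were adjusted by Benjamini-Hochberg over all 11068 genes, and an adjusted p under 0.05 was a call. Isoenzyme shares (18) and step sums (9) were compared by exact permutation tests. The procedure was tested on simulated data. Copies were sought by aligning coding sequences to GENCODE M21 transcripts. Values per library are given for called members, for log2 changes of at least 0.5, and for Gapdh and Aldoa, and other genes are named where called in a list, with Hif1a, Myc and Txnip whatever their value. The members and lists were chosen with earlier results of these data known. Alternatives were other filters, scalings, a pseudocount of 0.1, a loess trend (span 0.5) with length and GC content removed, the replicate block, and libraries left out.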

Additional observations from a re-analysis of the deposited data

How the results depend on the processing

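Depth is unknown, so precision rests on 3 libraries per group. Of the members' log2 changes under all alternatives, 358 kept direction and side of the threshold, 46 kept direction and lost the call, 28 kept direction and gained a call and 28 changed sign, and the cause was not tested. Members called higher and lower numbered 4 and 7 after quantile normalization, 2 and 6 on the same FPKM total, and 6 and 9 with the length and GC trend removed. Over all genes these fits called 2062 and 1727 of 11068, 1212 and 2902 of 11068, and 2124 and 2037 of 10664. Leaving out 1 library gave 0 to 12 higher and 1228 to 5874 genes called overall. Without Dark 1 and Light 2 together there were 0 higher and 1427 genes called, and with no filter 2606 of 19300 genes were called.

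The replicate block gave 12 members higher, 6 lower and 6690 genes called (3287 higher and 3403 lower). Deviations of same-numbered libraries from their group means correlated at 0.687 (number 1), 0.641 (number 2) and -0.0887 (number 3). Dark 2 with Light 1 gave -0.681 and Dark 1 with Light 2 gave -0.674. Deviations from a mean of 3 libraries sum to 0, so these correlations are not independent of each other. Numbers 1 and 2 deviated together, and number 3 did not. Dark 2 minus Dark 1 also rose with transcript GC content (Spearman rho = 0.693 over genes), whose part in these correlations was not tested. The labels do not say that a number marks a shared culture or day, so the main fit took no pairing. What a shared number stands for was not tested, and not every library correlated best with its own number.

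Sign changes under quantile normalization were Eno2 (0.0084), Pfkfb1 (0.0093), Pfkfb4 (0.011), Pfkm (-0.053), Pgam1 (-0.0046) and Pgk1 (-0.10). Median centring gave Eno2 0.013, Mpc2 0.019 and Pfkl 0.053. The same FPKM total gave Pfkm -0.092, Pgk1 -0.021 and a phosphofructokinase sum difference of -7.10 FPKM. Removing the length and GC trend gave Gpd2 0.00014, Ldhb -0.067, Mpc2 0.19, Pfkm -0.12 and Pgk1 -0.051. Without Dark 1 and Light 2, Eno2 stood at 0.050, Gapdh at -0.25 and Pfkm at -0.011. With libraries left out, log2 changes ran from -0.25 to 0.73 for Gapdh, -0.15 to 0.011 for Ldha, -0.18 to 0.0055 for Mpc1, -0.092 to 0.030 for Mpc2, -0.11 to 0.089 for Pfkl, -0.011 to 0.12 for Pfkm and -0.12 to 0.050 for Eno2. The share of Slc2a1 then differed by -0.039 to 0.048 percentage points, that of Pdk2 by -0.41 to 0.99, and the summed lactate dehydrogenase FPKM by -82.6 to 7.24.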
